A study of Mus musculus with 12 samples.

Results

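The 10 genes described here encode subunits of the Polycomb repressive complexes: Ezh2, Ezh1, Eed, Suz12 and Jarid2 of PRC2 and Rnf2, Ring1, Bmi1, Rybp and Yaf2 of PRC1. They were taken by name from the GENCODE M21 annotation of the mouse genome (GRCm38), where all 10 were found among 21755 protein-coding genes on the autosomes and the X chromosome. For each gene, the YY1 ChIP-seq peaks that lay in the gene body or within 3 kb of any annotated transcript start were collected. A peak within 3 kb of a transcript start is called a promoter peak below.

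The libraries came from lineage-negative (Lin-) bone marrow cells, which are the stem and progenitor cells left once cells carrying markers of mature blood lineages are removed. All mice were females of 3 months on a 129Sv4/Jae x B6 background. The WT group had 2 libraries and the XistΔ/Δ group had 2, in which a floxed Xist gene was removed by the Vav-iCre transgene, so Cre acted in blood cells and whether WT mice carried the transgene is not given in the labels. The series has 12 samples, of which the 8 libraries of histone marks were not analysed here. Nothing in the labels says whether libraries of a group came from separate mice, so the p-values measure only the spread between these libraries.

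YY1 binds DNA through zinc fingers, occupies many active promoters and is the mammalian relative of the fly protein Pho, which recruits Polycomb complexes to DNA. PRC2 methylates histone H3 on lysine 27, with EZH1 or EZH2 as the catalytic subunit, EED and SUZ12 as the core subunits that it needs for activity, and JARID2 as an accessory subunit. PRC1 attaches ubiquitin to histone H2A through the E3 ligases RNF2 and RING1, which pair with a PCGF protein such as BMI1, and RYBP and YAF2 are alternative subunits of variant PRC1 that were also isolated as partners of YY1. Both complexes take part in keeping genes silent on the inactive X chromosome, and EZH2 and BMI1 are known for roles in the self-renewal of blood stem cells.

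The libraries differed in depth, and in each genotype the deeper library had the longer peak list. WT replicates 1 and 2 held 24.88 M and 50.0 M tags, where a tag is an aligned read as the peak caller counts it, and 9553 and 15933 peaks, while XistΔ/Δ replicates 1 and 2 held 23.14 M and 59.54 M tags and 10075 and 18113 peaks, so replicate 2 was the deeper library in both genotypes. The deposited score was 1 for every peak, so the width of a peak and its percentile among all peak widths of the same library were the measures of size that could be compared. The most frequent width, 501 bp, was that of between 18.5% and 24.02% of a library's peaks. As a check of the labels, a peak of 3083 and 3222 bp lay over the start region of Xist in the WT libraries and no peak in either XistΔ/Δ library, and Ptprc, the gene of the blood cell surface protein CD45, had a promoter peak of 1024 bp or more in all 4 libraries.

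The sequences under the peaks were examined for letters of the YY1 binding motif, and the stretches around the starts of wide and narrow members are shown. The RefSeq promoter table (GRCm38.p6, from 250 bases before to 50 bases after a start) matched 8 of the 10 members, with 9 windows because Jarid2 has a pair of starts, and held no entry for Rybp and Yaf2. The 250 bases before the start are shown, 5′ to 3′ on the strand of the gene, for Bmi1 (chr2:18676768-18677017, plus strand), whose peak was wide and whose window holds a match, for Suz12 (chr11:79992856-79993105, plus strand), whose peak was wide without a match there, and for Ezh1 (chr11:101226464-101226713, minus strand), whose peak was the narrowest. In WT replicate 1 the Ezh1 peak reached only into the part of the stretch next to the start. All 3 stretches lie upstream of the annotated gene. Capitals mark matches to CCATNTT on either strand, where N is any base.
Bmi1: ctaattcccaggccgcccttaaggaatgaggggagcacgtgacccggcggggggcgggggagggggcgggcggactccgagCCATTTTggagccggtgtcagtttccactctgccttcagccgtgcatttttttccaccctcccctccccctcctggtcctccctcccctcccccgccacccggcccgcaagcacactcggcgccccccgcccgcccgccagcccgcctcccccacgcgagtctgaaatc
Suz12: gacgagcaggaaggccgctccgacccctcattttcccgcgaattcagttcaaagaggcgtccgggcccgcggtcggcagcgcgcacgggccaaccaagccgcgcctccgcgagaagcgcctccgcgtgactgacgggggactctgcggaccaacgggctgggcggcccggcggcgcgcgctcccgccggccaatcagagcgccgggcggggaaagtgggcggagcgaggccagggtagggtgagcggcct
Ezh1: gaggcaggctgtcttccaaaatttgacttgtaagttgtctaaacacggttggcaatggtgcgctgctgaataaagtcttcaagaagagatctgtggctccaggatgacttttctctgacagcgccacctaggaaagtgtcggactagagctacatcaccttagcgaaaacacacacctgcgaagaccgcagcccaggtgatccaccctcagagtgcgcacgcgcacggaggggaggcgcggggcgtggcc

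CCATNTT matched 2 of the 8 members with a window, Jarid2 at position -13 and Bmi1 at position -169 from the RefSeq start, and it matched 15.0% of the 20036 promoter windows of protein-coding genes. The longer form AANATGGCG, which contains the reverse complement of CCATNTT, matched 0 of the 8 members and 3.26% of all promoter windows. The 9 member windows had a median GC content of 64.33% and a median of 24 CpG dinucleotides, against 57% and 14 over all promoter windows.

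The same search was made in the bases under the peaks of all libraries with a promoter peak at the gene, called the core (4 libraries, and 3 at Yaf2). In these cores, of 380 bp at Ezh1 to 2834 bp at Jarid2, CCATNTT matched 4 times at Bmi1, 2 times at Ezh2, and 1 time each at Suz12, Jarid2, Rnf2 and Rybp, with 0 matches at Ezh1, Eed, Ring1 and Yaf2. AANATGGCG matched 1 time at Rnf2 and 1 time at Bmi1. As cores differ in length, the members are compared with other regions over fixed windows. CCATNTT matched the central 300 bp of 2 of the 10 member regions and of 17.7% of 7117 regions near transcript starts with peaks in all 4 libraries, and AANATGGCG matched 0 of 10 and 6.25%. Over 1000 bp, CCATNTT matched 4 of the 10 member regions and 46.8% of 7115 such regions, and AANATGGCG matched 1 of 10 and 15.4%. With 10 regions, the counts at the members do not set them apart from the other regions.

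The 30 bases around 5 matches are shown because they are the sites that later values refer to, on the strand of each gene and with the match in capitals. The Rnf2 site (chr1:151500787-151500816, minus strand) begins 150 bp inside the gene, in an exon outside the coding sequence, and matches the longer form. The first Bmi1 site (chr2:18678069-18678098, plus strand) begins 1061 bp inside the gene in an intron and matches the longer form. The other Bmi1 site (chr2:18677358-18677387, plus strand) begins 350 bp inside the gene in an exon outside the coding sequence. The Suz12 site (chr11:79993538-79993567, plus strand) lies in a coding exon, 442 bp inside the gene. The Jarid2 site (chr13:44730751-44730780, plus strand) lies in an intron of the longest gene model and just before the RefSeq start of a shorter one.
Rnf2: aagccgagactCGCCATATTgtgcggcggc
Bmi1 intron: gatggctggtAAGATGGCGgttcccagttg
Bmi1 exon: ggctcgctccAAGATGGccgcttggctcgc
Suz12: gaagaagccgAAAATGGagcacgtccaggc
Jarid2: gtggccatagCCATTTTgtagtcaagggac

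YY1 peaks lay at nearly all of the 10 genes in every library. A peak in the gene body or within 3 kb of a start was found at 10 members in each WT library and at 9 and 10 members in the XistΔ/Δ libraries of replicates 1 and 2, and the gene without one was Yaf2 in XistΔ/Δ replicate 1. By the same rule, 40.8%, 50.1%, 41.1% and 51.7% of the 21755 protein-coding genes had a peak in WT replicate 1, WT replicate 2, XistΔ/Δ replicate 1 and XistΔ/Δ replicate 2. Values for all 4 libraries are given in this order from here on. A promoter peak in all 4 libraries was present at 9 of the 10 members, with 5 of 5 PRC2 genes and 4 of 5 PRC1 genes, and at 36.0% of protein-coding genes.

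Most of the peaks sat near annotated transcript starts. Over the 4 libraries the members held 52 peaks, with 12, 12, 13 and 15 per library in the order above, and 46 of them were promoter peaks. The centre of 42 promoter peaks was within 1 kb of a transcript start, at most 856.5 bp away, and the other 4 were 1 peak per library upstream of Ring1. Joined over the libraries, the promoter peaks of each of the 10 genes gave 1 region that held the 5′ end of the gene model. Between 7.07% of this region at Jarid2 and 58.5% at Yaf2 lay upstream of the gene. Promoter peaks lie near a start by definition, and no share over all genes was computed for these counts.

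**Figure D1:**
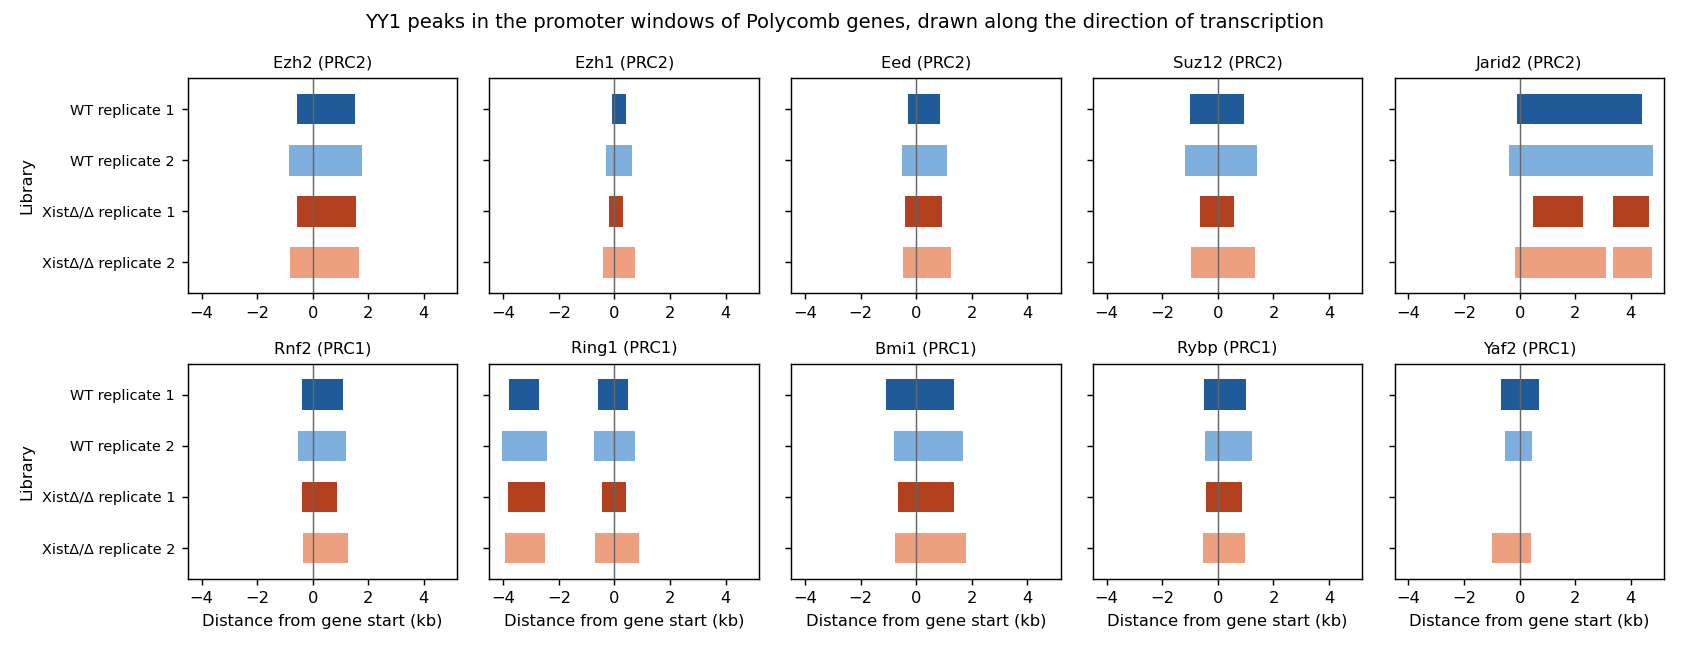
YY1 peaks in the promoter windows of the 10 Polycomb genes, 1 panel per gene and 1 row per library, with the distance from the 5′ end of the gene in kb on the horizontal axis, positive into the gene, and each bar the extent of 1 peak. The peaks span the gene start in every library except for Jarid2 in XistΔ/Δ replicate 1 and Yaf2 in XistΔ/Δ replicate 1, which has no peak, and the 14 bp gap at Ezh2 in XistΔ/Δ replicate 1 is too small to be seen.

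The remaining 6 peaks lay in introns of Jarid2 and Yaf2, far from a start. An intronic peak at Jarid2, centred 140204 to 140223 bp into the gene, was called in WT replicate 1 (501 bp), XistΔ/Δ replicate 1 (501 bp) and XistΔ/Δ replicate 2 (794 bp), and not in WT replicate 2. At Yaf2, an intronic peak of 501 bp lay 38496 bp into the gene in WT replicate 2 and 38545 bp in XistΔ/Δ replicate 2, and a further one of 501 bp lay 49014 bp in XistΔ/Δ replicate 2. All Yaf2 body peaks were thus in the deeper libraries and 501 bp wide. The nearest of these to a start, at Jarid2, was centred 28895 bp from it, and no member peak lay between the promoter windows and that distance.

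Among PRC2 genes, Jarid2 had the widest promoter peak of all 10 members in 3 of the 4 libraries. Jarid2 (ENSMUSG00000038518.15) spans 192170 bp on the plus strand of chromosome 13, from 44729474 to 44921643, and has 16 annotated starts. Its widest promoter peak was 4528 and 5175 bp in the WT libraries against 1796 and 3298 bp in the XistΔ/Δ libraries. Both XistΔ/Δ values were below both WT values. In the XistΔ/Δ libraries the stretch that was 1 peak in WT was called as a pair of peaks, of 1796 and 1271 bp with a gap of 1089 bp in replicate 1 and of 3298 and 1392 bp with a gap of 241 bp in replicate 2. The summed widths were 4528, 5175, 3067 and 4690 bp in the order above, which overlap between genotypes. In XistΔ/Δ replicate 1 the peak began 493 bp inside the gene, past its most upstream start, and the libraries covered 13, 14, 10 and 14 of the 16 starts. The Jarid2 site printed above is held by the peaks of all 4 libraries.

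Ezh2, the main methyltransferase subunit of dividing cells, had a peak that reached further into the gene than upstream. Ezh2 (ENSMUSG00000029687.16) lies on the minus strand of chromosome 6, from 47530139 to 47595341. Its widest promoter peak was 2077, 2644, 1345 and 2488 bp in the 4 libraries. XistΔ/Δ replicate 1 stood below the other 3 libraries, where a gap of 14 bp split the region into peaks of 1345 and 780 bp, and the summed width of 2125 bp was above that of WT replicate 1. The groups overlapped.

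Suz12 and Eed encode the core subunits that the methyltransferase needs. At Suz12 (ENSMUSG00000017548.15, chromosome 11, plus strand, 79993106 to 80034123) the widest promoter peak was 1977, 2581, 1225 and 2314 bp. It was narrowest in XistΔ/Δ replicate 1 and covered 1 of 5 annotated starts in each library, together with the Suz12 site printed above. At Eed (ENSMUSG00000030619.9, chromosome 7, minus strand, 89954654 to 89980983) the values were 1162, 1590, 1326 and 1741 bp, lower in replicate 1 of each genotype than in replicate 2. The Eed region also held the start of the noncoding gene E230029C05Rik, so its width cannot be assigned to Eed alone.

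Ezh1, which encodes the other methyltransferase subunit and is the paralog found in cells that divide little, had the narrowest peak among members with a peak in all libraries. Ezh1 (ENSMUSG00000006920.14) lies on the minus strand of chromosome 11, from 101191115 to 101226463. The widest promoter peak was 501, 927, 501 and 1131 bp in the 4 libraries. The shallower library of each genotype had the most frequent width of all peaks, and the deeper ones had wider peaks. All 4 libraries covered the same 4 of 9 starts.

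**Figure D2:**
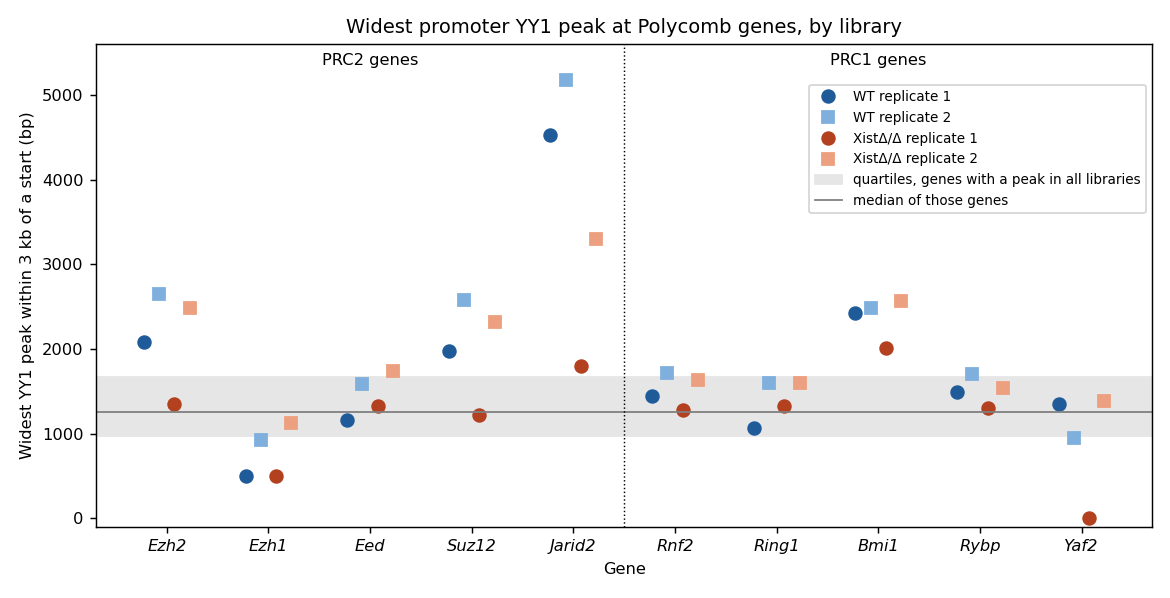
Width in bp of the widest YY1 peak within 3 kb of a transcript start at each of the 10 genes, with 1 point per library (circles replicate 1, squares replicate 2, blue WT, red XistΔ/Δ). The line marks the median (1258 bp) and the band the quartiles (974 and 1669 bp) of the mean width over the 7833 protein-coding genes with a promoter peak in all 4 libraries, and Jarid2 stands above the other members in both WT libraries while Yaf2 is at 0 in XistΔ/Δ replicate 1.

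Among PRC1 genes, Bmi1 had the widest promoter peak in all 4 libraries. Bmi1 (ENSMUSG00000026739.13), which encodes PCGF4, the partner of the ligases in canonical PRC1, lies on the plus strand of chromosome 2, from 18677018 to 18686629. The widest promoter peak was 2426, 2481, 2005 and 2560 bp in the 4 libraries. Its percentiles stayed between 94.3 and 96.6. The core of 2005 bp, shared by all 4 libraries, holds both Bmi1 sites printed above and the match in the promoter window.

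The peaks of the E3 ligase genes were of middle width. At Rnf2 (ENSMUSG00000026484.13, chromosome 1, minus strand, 151458004 to 151500955), which encodes RING1B, the values were 1445, 1721, 1276 and 1628 bp, and the Rnf2 site lies in the core of all 4 libraries. At Ring1 (ENSMUSG00000024325.8, chromosome 17, minus strand, 34020792 to 34024680), which encodes RING1A, 2 peaks were called in the promoter window of each library. The peak over the start of Ring1 itself was 1067, 1490, 882 and 1596 bp wide. The other, from 34027118 to 34028715 over all libraries, was 1067, 1598, 1323 and 1420 bp wide and held the start of the neighbouring gene H2-Ke6. Its near edge was at -2720 to -2438 bp from the start of Ring1, just inside the 3 kb window, and by the rule it gives the widest value of Ring1 in WT replicate 2 and XistΔ/Δ replicate 1. The region over the Ring1 start also held the starts of the noncoding genes Gm26940, Mir219a-1 and Mir219c.

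Rybp and Yaf2, which encode paralogous subunits of variant PRC1, differed from each other. At Rybp (ENSMUSG00000072872.3, chromosome 6, minus strand, 100228565 to 100287485) the widest promoter peak was 1490, 1702, 1304 and 1533 bp in the same order of libraries, so every library had a peak of similar width. At Yaf2 (ENSMUSG00000022634.9, chromosome 15, minus strand, 93284278 to 93336935) it was 1355 and 952 bp in the WT libraries and 1386 bp in XistΔ/Δ replicate 2, and XistΔ/Δ replicate 1 had no peak. That library was the one with the fewest tags, though its list held 10075 peaks against 9553 in WT replicate 1. The deeper XistΔ/Δ library had the widest Yaf2 peak of the 4. The absence thus moved with 1 library and not with both libraries of the genotype. Whether depth had a part in it was not tested.

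Set beside all genes, 8 of the 9 members with a promoter peak in all 4 libraries were wider than the median gene. The mean width over the 4 libraries was larger than that of 99.35% of the 7833 genes with a promoter peak in all 4 libraries at Jarid2, of 92.2% at Bmi1, of 88.9% at Ezh2 and of 86.4% at Suz12. For Rnf2, Rybp, Eed and Ring1 the share was 67.2%, 66.7%, 63.6% and 59.6%, and for Ezh1 6.87%. The mean of Ring1 takes the H2-Ke6 peak in WT replicate 2 and XistΔ/Δ replicate 1. In these libraries the peak over the start of Ring1 itself was 1490 and 882 bp. Neighbours in this order overlapped: Bmi1 was 2368 ± 248 bp (SD, n = 4 libraries), Ezh2 2138 ± 580.5 bp and Suz12 2024 ± 587 bp, and Jarid2, at 3699 ± 1489 bp, was wider than all of them in both WT libraries and in XistΔ/Δ replicate 2 but not in XistΔ/Δ replicate 1. The median percentile over the 10 members was 81.5, 82.6, 84.3 and 84.3 in the order of libraries, against 59.6, 69.4, 60.9 and 71.8 over all protein-coding genes with a promoter peak in that library.

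PRC2 and PRC1 genes were then compared. The median of the widest promoter peak was 1977, 2581, 1326 and 2314 bp over the 5 PRC2 genes and 1445, 1702, 1304 and 1596 bp over the 5 PRC1 genes. The difference was 532, 879, 22 and 718 bp, above 0 in all 4 libraries, with a mean of 537.8 bp (SD 371.9, n = 4 libraries), so that in XistΔ/Δ replicate 1 it was close to 0. Of the 25 pairs of a PRC2 and a PRC1 gene, the PRC2 gene had the wider peak in 14, 16, 14 and 17. The widths of the complexes overlapped, as Bmi1 was wider than Ezh1, Eed and, in 3 of the 4 libraries, at least 1 of Ezh2 and Suz12. The difference rests on a few genes and no test was made, since genes are not replicates.

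The genotypes were compared next, by percentile, which sets each peak against the other peaks of its own library although the medians over all genes given above were still higher in both deeper libraries. A percentile is the share of a library's peaks that are narrower, with ties sharing their mean and 0 for no peak. The median over the 10 members of the difference between XistΔ/Δ and WT was 0.263 percentile points, with 5 members higher and 5 lower and a range from -26.7 at Yaf2 to 11.9 at Ring1, and over the 10314 protein-coding genes with a promoter peak in at least 2 libraries it was 1.51. The sign at the members was not stable: the value was -2.45 in lists of equal length, -1.46 by the order of the list, -0.279 with peaks of 501 bp or less removed, -0.194 by summed width, -1.80 and -0.272 with WT replicate 1 or 2 left out and -2.33 with XistΔ/Δ replicate 2 left out. Tag directories named in the file headers carry a number shared by libraries of the same replicate number, with no stated meaning, and the median was 0.773 within replicate 1 and 0.836 within replicate 2. With 2 libraries against 2, the two-sided exact permutation test cannot give a p below 0.333, so no single gene can pass a threshold.

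At 3 members the libraries of the genotypes did not overlap. Eed was higher in XistΔ/Δ, with percentiles of 68.3 and 79.4 in WT against 84.8 and 85.7 in XistΔ/Δ, a difference of 11.4 (two-sided exact permutation test, p = 0.333). Ring1 was higher, with 63.7 and 79.6 in WT against 84.7 and 82.3 in XistΔ/Δ, a difference of 11.9 (two-sided exact permutation test, p = 0.333). That value includes the H2-Ke6 peak. With only the peaks over a Ring1 start, an alternative chosen after the data were seen, the percentiles were 63.7 and 76.3 in WT against 58.0 and 82.3 in XistΔ/Δ, which overlap, with a difference of 0.169. Jarid2 was lower in XistΔ/Δ, with 99.8 and 99.8 in WT against 94.4 and 98.5 in XistΔ/Δ, a difference of -3.35 (two-sided exact permutation test, p = 0.333). Higher in both XistΔ/Δ libraries than in both WT libraries were 13.6% of the 10314 genes tested, against 2 of 10 members, and lower in both were 5.24%, against 1 of 10 members. Without WT replicate 1 the difference was 5.87 at Eed and 3.88 at Ring1, without WT replicate 2 it was 19.8 at Ring1, and without XistΔ/Δ replicate 1 it was -1.30 and without XistΔ/Δ replicate 2 -5.40 at Jarid2.

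The other 7 members overlapped between genotypes. Ezh2 had percentiles of 93.55 and 95.4 in WT against 85.6 and 95.25 in XistΔ/Δ, and Suz12 had 92.3 and 95.0 in WT against 81.0 and 94.0 in XistΔ/Δ, so that in both genes XistΔ/Δ replicate 1 was the lowest library. Their differences were -4.05 and -6.15 and, without XistΔ/Δ replicate 1, 0.775 and 0.352. Ezh1 spread most among members with a peak in all libraries, with 9.76 and 50.2 in WT against 12.02 and 64.53 in XistΔ/Δ, so its range within a genotype was larger than the difference of 8.31. Rnf2 (80.8 and 82.8 in WT against 82.6 and 83.0 in XistΔ/Δ), Rybp (82.2 and 82.4 in WT against 83.9 and 80.4 in XistΔ/Δ) and Bmi1 (96.6 and 94.3 in WT against 96.5 and 95.8 in XistΔ/Δ) differed by less than 1 point. Yaf2 had 77.6 and 51.5 in WT against 0 and 75.7 in XistΔ/Δ, and its difference of -26.7 became 11.1 without XistΔ/Δ replicate 1. The exact permutation p of these 7 genes was 0.667 or 1.

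Within both replicate numbers, XistΔ/Δ was below WT at Ezh2, Suz12 and Jarid2 and above it at Ezh1, Eed, Rnf2 and Ring1. Of the 10314 genes tested, 15.7% were lower within both numbers, against 3 of the 10 members, all 3 of them PRC2 genes, and 32.6% were higher, against 4 of the 10. In replicate 2 the differences at Ezh2, Suz12 and Jarid2 were -0.151, -1.0 and -1.30 points, and in replicate 1 they were -7.95, -11.3 and -5.40 points. The differences were thus larger in replicate 1. Its XistΔ/Δ library had the fewest tags and, at 777 bp, the lowest median peak width. The part of that library in the differences was not tested. The widths of all promoter peaks of a gene were also summed and ranked among genes, a choice made after the data were seen. By this rank Ezh2 had percentiles of 87.7 and 86.6 in WT against 93.2 and 84.0 in XistΔ/Δ, a difference of 1.42. Jarid2 had 99.6 and 98.9 in WT against 98.6 and 98.3 in XistΔ/Δ, a difference of -0.748. Suz12 had 85.9 and 85.6 in WT against 68.9 and 80.85 in XistΔ/Δ, a difference of -10.9. By this rank 3 members did not overlap between genotypes, Suz12 and Jarid2 lower and Eed higher in XistΔ/Δ. No share over all genes was computed for that count, so it has no background.

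**Figure D3:**
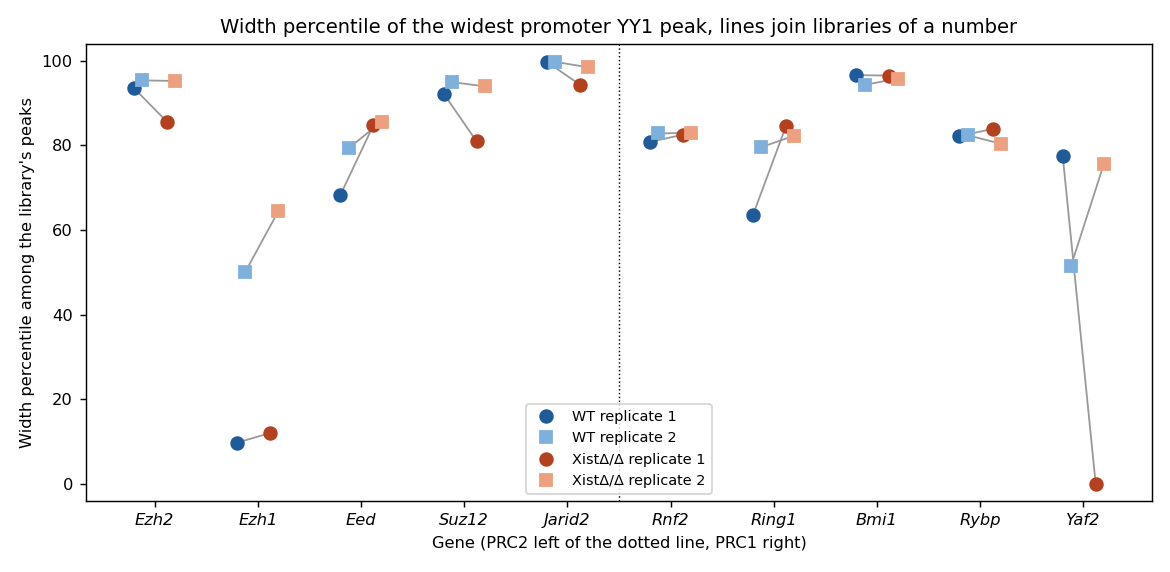
Percentile of the widest promoter YY1 peak among all peaks of its library (vertical axis, 0 for no peak) at each of the 10 genes, with 1 point per library and grey lines joining WT to XistΔ/Δ of the same replicate number. Jarid2, Bmi1, Ezh2 and Suz12 sit at the top with the lowest value at 81.0, both lines rise at Ezh1, Eed, Rnf2 and Ring1, and the lines at Yaf2 go opposite ways.

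The wider Polycomb family was read from lists of 44 further genes, of which 43 were in the annotation (Ezhip was not matched). A promoter peak in all 4 libraries was present at 31 of the 43, in 1 to 3 libraries at 10 and in none at 2, beside 9 of the 10 members and 36.0% of protein-coding genes. By list, this was 6 of 8 further PRC2 genes, 13 of 22 further PRC1 genes and 12 of 13 genes of the deubiquitinase PR-DUB, which removes the PRC1 mark, and of PhoRC, the YY1-type complex. The genes without a promoter peak were Auts2, a subunit of a variant PRC1, and Asxl3, a PR-DUB subunit.

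The widest of the other PRC2 genes were Lcor, whose locus encodes an accessory factor of PRC2, with 2364, 3315, 2176 and 3201 bp, and Rbbp4, a histone chaperone in the PRC2 core, with 1906, 2155, 1565 and 1948 bp in the order of libraries. Both were wider than Rnf2 and Rybp in each library. The median over the 8 further PRC2 genes was 1269, 1648, 877.5 and 1382 bp, below that of the 5 PRC1 members in each library. Among the other PRC1 genes, Kdm2b, which brings a variant PRC1 to CpG islands, had 1799, 3191, 1699 and 2588 bp. The median over the 22 further PRC1 genes, 743, 1104, 563.5 and 1254 bp, was below that of the 5 PRC1 members in each library. It was also below that of the 8 further PRC2 genes in each library. Genes without a promoter peak in a library count as 0 in these medians.

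The widest of the third list were Yy1 itself, with 3554, 3749, 3396 and 3978 bp, and the X-linked Hcfc1, a PR-DUB partner, with 2997, 4200, 2927 and 4195 bp. Among the 10 members, only Jarid2 exceeded 2927 bp, in 3 of the 4 libraries. None of the 10 members is X-linked. Of the other X-linked genes, Ogt, the GlcNAc transferase bound by PR-DUB, had 1616 and 2663 bp in WT against 1529 and 3051 bp in XistΔ/Δ, and Rbbp7, the paralog of Rbbp4, had 501 and 1885 bp in WT against 630 and 1202 bp in XistΔ/Δ. Bcor, a variant PRC1 subunit, had 647 and 1031 bp in WT against 626 and 1621 bp in XistΔ/Δ. Its relative Bcorl1 had no promoter peak in WT replicate 1, 501 bp in WT replicate 2 and 501 and 887 bp in XistΔ/Δ, and Scml2 had 501 and 761 bp in WT and 501 bp in both XistΔ/Δ libraries. At all 6 X-linked genes the genotypes overlapped or shared a value. No gene of these lists had a peak in both libraries of 1 genotype and in neither of the other. Over the 53 genes, members included, the number without a promoter peak was 5, 3, 12 and 3 in the 4 libraries. Among these genes, the library without a Yaf2 peak thus lacked the most. Of the 21755 protein-coding genes, 8638, 10432, 8631 and 10725 had a promoter peak, so this order did not hold to the same extent over all genes. The cause was not tested.

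**Figure D4:**
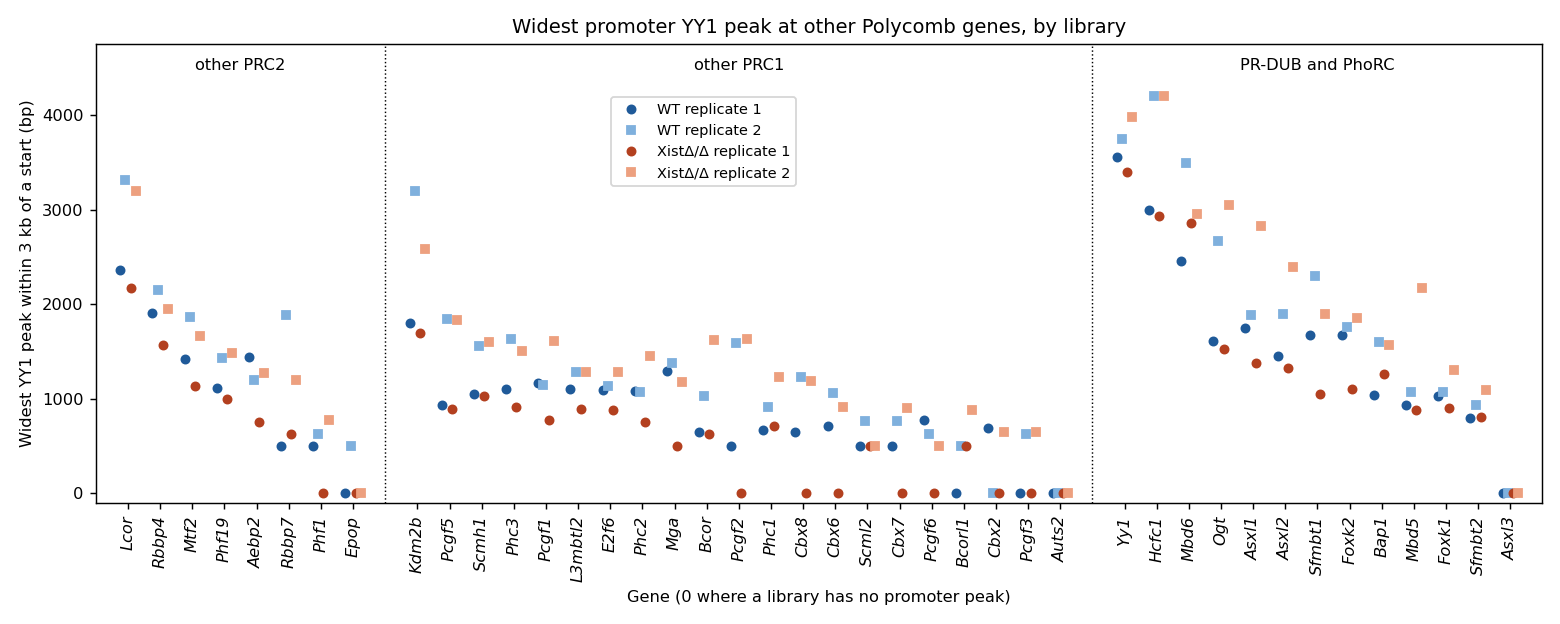
Width in bp of the widest YY1 peak within 3 kb of a transcript start at 42 further Polycomb genes, in 3 lists ordered by their mean, with 1 point per library (circles replicate 1, squares replicate 2, blue WT, red XistΔ/Δ) and 0 where a library had no promoter peak. Yy1 and Hcfc1 have the widest peaks, Auts2 and Asxl3 are at 0 in all 4 libraries, and most other points at 0 belong to XistΔ/Δ replicate 1.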

How the data were processed

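YY1 ChIP-seq was done by the authors on MNase-digested chromatin of Lin- cells. Per the study's methods, reads with a mapping quality under 30 and duplicates were removed. The submitters' processing notes name Bowtie2 2.3.5.1, SAMtools 1.10, Picard 2.0.1 and HOMER 4.9.1. Per the file headers, HOMER findPeaks joined 500 bp peaks at least 500 bp apart into regions in each library separately, at a false discovery rate of 0.001 and with no input library named. The deposited lists hold positions and a score that is 1 for every peak. The headers number replicates otherwise than the labels, which were followed. Peaks were assigned to GENCODE M21 genes by an overlap of at least 1 bp with the gene or the 3 kb window, with Python 3.11.15, NumPy 2.4.6 and SciPy 1.17.1, and the assignment was tested on simulated data. Percentiles were compared with a two-sided exact permutation test. No pair of lists shared more than 4 identical peak positions, so each library counted once. Tag totals are the only depth given, and the tags behind a single peak are unknown. The 10 members, the lists and the tests were chosen with earlier results of these data known. Named genes are all members and, from the 3 lists of further Polycomb genes, those without a peak, those with peaks in 1 genotype alone, those on the X chromosome and the 2 widest per list, of which 1 gene is not reported here. Neighbours are named where their start lies in a member's region.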

Additional observations from a re-analysis of the deposited data

How the results depend on the processing

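Under the 8 alternatives with all libraries, the PRC2 minus PRC1 difference in width was 474 bp by the mean of the 5 genes and 513.8 bp by summed width. In the others it was 537.8 bp, the main value, or 544.8 bp. Each moved by less than the spread between libraries, but that spread, an SD of 371.9 bp, is a wide margin. Every list was also shortened to the length of the shortest by keeping its first peaks in the order of the list. The score, 1 for every peak, does not show what that order ranks. The difference between genotypes (XistΔ/Δ minus WT) was then -1 instead of -0.5 in members with a peak, as Ezh1 had none left in XistΔ/Δ replicate 1. It was 1 instead of 2 in peaks at members and -2.45 instead of 0.263 in the median percentile. The members without overlap between genotypes numbered 5 instead of 3, and Rnf2 changed from 0.956 to -1.40. Peaks at members differed by 1 with promoter windows only and by 0.5 with peaks over a transcript start, chosen after seeing the data. Ranking by the order of the list gave a median of -1.46, 1 member without overlap, -0.484 at Rnf2 and -0.395 at Bmi1, and ranking by summed width, also chosen after seeing the data, gave 1.42 at Ezh2 and -1.44 at Rnf2. No share over all genes was computed for these alternatives. The counts of 5 and 1 members without overlap, and of 3 by summed width, thus have no background. The cause of these moves was not tested.

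Leaving out each library in turn left a single library in 1 genotype and gave values with no test. The difference in members with a peak ranged from -1 to 0 and that in peaks at members from 1 to 3. The median percentile ranged from -2.33 to 0.976 and the PRC2 minus PRC1 width from 424 to 709.7 bp. The members without overlap ranged from 6 to 7. A single library overlaps with the other genotype only where it falls between the 2 libraries of that genotype. Separation is thus easier to reach here, and the counts of 6 to 7 cannot be set beside the main value of 3. No share over all genes was computed for these counts, so they have no background. By gene, the percentile difference ranged from -8.88 to 0.775 at Ezh2, from -17.9 to 34.6 at Ezh1, from 5.87 to 16.9 at Eed, from -12.65 to 0.352 at Suz12, from -5.40 to -1.30 at Jarid2, from -0.053 to 1.96 at Rnf2, from 3.88 to 19.8 at Ring1, from -0.470 to 1.85 at Bmi1, from -1.91 to 1.58 at Rybp and from -64.55 to 11.1 at Yaf2. The sign turned without XistΔ/Δ replicate 1 (Ezh2, Suz12, Yaf2), XistΔ/Δ replicate 2 (Ezh1, Rybp), WT replicate 1 (Ezh1, Rnf2) or WT replicate 2 (Bmi1).

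With the replicate number as a block, 7 members moved the same way in both pairs, the other differences were those given above, and the smallest paired p is 0.5. Across 10314 genes, deviations of replicate 1 from the group means in WT and XistΔ/Δ correlated with r = 0.379, but no label says what a number shares. Replicate 1 was also the shallower library in both genotypes, so replicate number and depth cannot be told apart here. Without tags per peak, binding strength could not be compared.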
